A study of Mus musculus with 13 samples.

Results

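Hair bulge cells of the skin and GFP_Low cells of the small intestinal crypt were compared on 6 of the 13 expression arrays of the study, 3 of each population, over 17097 genes. Both populations were titled GFPdim and came from C57BL/6 mice with an Lgr5-EGFP-ires-CreERT2 allele, in which green fluorescent protein (GFP) is made under the control of the Lgr5 promoter. The series' own design text gives 3 mice for each sort. No further treatment was described, and the age and sex of the mice are not given in the sources used here. GFP_Low cells were sorted from crypts freed with chelators and taken apart with trypsin. According to the methods for the DNA libraries, the hair bulge was scraped out of the skin and the trypsin step was extended in some cases. The other arrays were 4 of GFP_High crypt cells and 3 of Villus epithelium. They share the estimate of the spread, and the GFP_High level is given for a few genes as a reference without a test. A label field for the Lgr5 level reads high for the 3 hair bulge samples and for GFP_Low 2 and 3, and low for GFP_Low 1, whereas the titles call all 6 dim and the methods call the hair bulge Lgr5_Low. Groups follow the titles and the tissue.

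The hair follicle renews itself through cycles of growth and rest from stem cells held in the bulge, a niche of the outer root sheath where keratin 14 and keratin 15 are made. These cells divide rarely while the follicle rests. The intestinal crypt is renewed continuously by Lgr5 stem cells at its base. Their immediate daughters divide quickly and commit to the absorptive lineage or, under Notch control, to the secretory lineage of goblet, Paneth, enteroendocrine and tuft cells. Lgr5 is a receptor for R-spondins, secreted proteins that raise the response of a cell to Wnt signals, and it marks stem cells in both tissues. In the crypt, a lower GFP signal marks the daughters, which keep GFP protein for a time after Lgr5 expression ends.

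The values are intensities of Affymetrix HT MG-430 PM arrays on a linear scale, which were taken to log2. Differences are hair bulge minus GFP_Low on the log2 scale, each with the standard error (SE) and the Benjamini-Hochberg adjusted p of limma. A gene passed the test at an adjusted p under 0.05. Genes without signal were judged by 86 probe sets for receptors of smell, pheromones and bitter taste, whose 95th percentile, an intensity of 7.9, is named the receptor level here. A fold change reads "at least" where the lower group was not above this level, which then took its place in the ratio. The log2 values of the hair bulge arrays correlated with each other at 0.978 to 0.989 across genes, and those of the GFP_Low arrays at 0.983 to 0.991 (genes are not independent replicates). For 8587 genes (50.2%) every array of one group was above every array of the other, so a lack of overlap is common here. With so few arrays the precision of each difference is limited.

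Hair bulge 2 stood apart from the other hair bulge arrays. It had the highest of the 3 values for all 25 mitosis genes and for 27 of 30 DNA replication genes. The same held for 7 of 12 melanocyte genes and 17 of 24 genes of the cornified layer and sebaceous gland. It also held for 17 of 22 genes of ribosome assembly, but for only 5 of 30 genes of hair follicle stem cells. The share over all genes was not counted. Cd207, the langerin gene of Langerhans cells, was at 9.4, 139 and 13.5 on the hair bulge arrays. GFP_Low 2 stood apart in a few genes. The class II antigen presentation gene Cd74 was at 348, 9.4 and 338 on the GFP_Low arrays, and Igf2bp3, which encodes an RNA-binding protein, at 6.4, 250.4 and 5.8. These arrays carry the same code in their titles, and the sources used here do not say what it stands for. Several results that rest on hair bulge 2 are given with and without it.

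Lgr5 mRNA was high in the hair bulge and low in GFP_Low cells, although both were sorted as GFPdim. Its intensity was 479, 539.7 and 687 on the hair bulge arrays and 12.6, 66.1 and 14 on the GFP_Low arrays. The groups did not overlap, and GFP_Low 2 was the highest of its group. The difference was 4.63 (SE 0.46, adjusted p = 1.08e-06 from limma), or 24.8-fold. The comparison was chosen with this difference in Lgr5 known, so its p is no independent support for it. In GFP_High cells Lgr5 was at 649.8 ± 118 (SD, n = 4), against 569 ± 107 (SD, n = 3) in the hair bulge. Igfbp4, which encodes a secreted protein that binds insulin-like growth factors, was at 645, 1329 and 951 in the hair bulge and at 118, 75.3 and 66.8 in GFP_Low cells. Every hair bulge array was above every GFP_Low array, with a difference of 3.47 (SE 0.42, adjusted p = 7.45e-06 from limma), and the GFP_High level was 714 ± 132.

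The other 3 markers separated the tissues almost completely. Krt14, the keratin of basal epidermal and outer root sheath cells, was at 5549, 3947 and 7179 in the hair bulge and at 5.5, 6.1 and 5.6 in GFP_Low cells, which is not above the receptor level. It was thus at least 683-fold higher in the hair bulge (difference 9.88, SE 0.18, adjusted p = 2.18e-14 from limma). Prom1, the CD133 gene of crypt cells, was at 5.3, 6.2 and 5.4 in the hair bulge and at 1942, 1006 and 1149 in GFP_Low cells. All hair bulge arrays lay under the receptor level, and the gene was at least 166-fold lower there (difference -7.86, adjusted p = 5.77e-13 from limma). Tff3, a trefoil peptide of goblet cell mucus, was at 6, 3.5 and 6.1 in the hair bulge and at 5829.6, 7477 and 6982 in GFP_Low cells, at least 851-fold lower in the hair bulge (difference -10.38, adjusted p = 7.60e-13 from limma). Between hair bulge 2 and GFP_Low 2, which share their code, the differences were 3.03 for Lgr5, 4.14 for Igfbp4, 9.34 for Krt14, -7.34 for Prom1 and -11.06 for Tff3. They had the same signs as the differences between the groups. In bulk samples such as these, fewer cells of a type and less RNA per cell cannot be told apart.

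**Figure D1:**
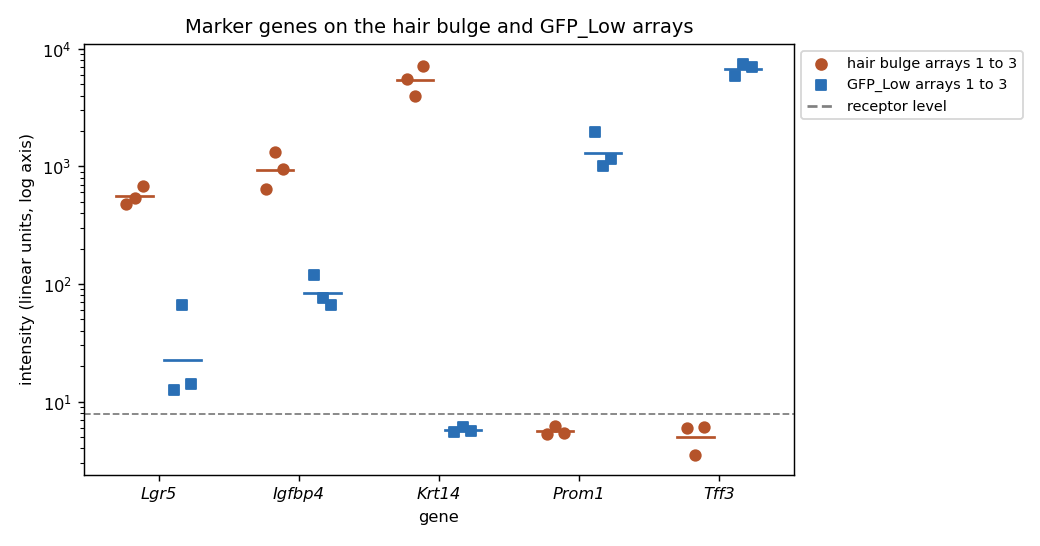
Intensity of Lgr5, Igfbp4, Krt14, Prom1 and Tff3 on each array, on a log axis, with hair bulge arrays as circles and GFP_Low arrays as squares. The line is the geometric mean of the 3 arrays and the dashed line the receptor level of 7.9. No marker overlaps between the groups, and Krt14 in GFP_Low cells and Prom1 and Tff3 in the hair bulge lie under the dashed line.

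Promoters of 6 genes that were far apart between the tissues are shown, so that the letters before their starts can be set beside their levels. The RefSeq table (GRCm38.p6) held a promoter for 13514 of the 17097 genes, and for 3 of the 5 markers (Krt14, Igfbp4 and Prom1). Prom1 has 2 promoters there, and the first listed was used. Col17a1, a collagen of the basal anchoring complex with the largest positive difference, and the enterocyte genes Fabp2 and Alpi are added. Each window has 250 bases before and 50 from the start of the gene, 5′ to 3′ on the strand of the gene. Capitals mark matches, on either strand, to CAAAGTCCA (a site of HNF4), CNATAAA (CDX factors), TGANTCA (AP-1), ATCAAAG (TCF factors) or TATAAA (the TATA box). CNATAAA holds TATAAA where N is T, so one stretch can match both.
Krt14, chr11:100205981-100206280, minus strand: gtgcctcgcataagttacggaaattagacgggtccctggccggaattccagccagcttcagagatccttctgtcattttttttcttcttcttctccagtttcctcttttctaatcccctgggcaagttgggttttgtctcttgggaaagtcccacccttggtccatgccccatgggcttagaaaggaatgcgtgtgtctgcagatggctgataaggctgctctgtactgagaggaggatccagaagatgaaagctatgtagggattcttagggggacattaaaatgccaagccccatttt
Igfbp4, chr11:99040994-99041293, plus strand: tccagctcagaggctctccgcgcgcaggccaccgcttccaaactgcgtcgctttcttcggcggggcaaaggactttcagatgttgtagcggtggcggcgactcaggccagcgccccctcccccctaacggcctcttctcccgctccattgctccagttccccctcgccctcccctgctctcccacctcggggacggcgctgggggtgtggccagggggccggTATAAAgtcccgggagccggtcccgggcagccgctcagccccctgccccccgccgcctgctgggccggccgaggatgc
Prom1, chr5:44101687-44101986, minus strand: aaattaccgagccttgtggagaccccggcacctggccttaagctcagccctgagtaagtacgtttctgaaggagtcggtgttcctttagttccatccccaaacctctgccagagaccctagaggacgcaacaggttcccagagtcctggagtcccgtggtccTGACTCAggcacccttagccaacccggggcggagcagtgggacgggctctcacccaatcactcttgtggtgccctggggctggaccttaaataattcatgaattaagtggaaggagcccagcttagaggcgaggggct
Col17a1, chr19:47691993-47692292, minus strand: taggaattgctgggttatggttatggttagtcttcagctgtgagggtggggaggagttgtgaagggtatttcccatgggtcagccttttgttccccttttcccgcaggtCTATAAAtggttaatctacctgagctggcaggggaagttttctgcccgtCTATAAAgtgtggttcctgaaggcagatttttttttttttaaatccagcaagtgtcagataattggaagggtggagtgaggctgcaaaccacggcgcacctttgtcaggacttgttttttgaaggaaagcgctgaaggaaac
Fabp2, chr3:122894822-122895121, plus strand: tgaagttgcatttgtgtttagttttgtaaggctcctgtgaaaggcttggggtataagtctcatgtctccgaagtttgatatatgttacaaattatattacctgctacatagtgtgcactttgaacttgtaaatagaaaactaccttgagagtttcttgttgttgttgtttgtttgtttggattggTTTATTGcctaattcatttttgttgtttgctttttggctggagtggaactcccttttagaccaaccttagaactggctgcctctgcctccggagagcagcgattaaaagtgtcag
Alpi, chr1:87101557-87101856, minus strand: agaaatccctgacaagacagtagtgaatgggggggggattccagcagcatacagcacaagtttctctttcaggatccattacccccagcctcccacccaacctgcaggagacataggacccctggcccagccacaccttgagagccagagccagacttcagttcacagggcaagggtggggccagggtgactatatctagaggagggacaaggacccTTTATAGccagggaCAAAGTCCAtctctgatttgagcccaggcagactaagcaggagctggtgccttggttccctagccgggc

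The Igfbp4 window holds TATAAA from 28 to 23 bases before the start, and the Prom1 window an AP-1 match from 88 to 82 bases before it. The Alpi window holds the HNF4 letters from 19 to 11 bases before the start and a CDX match on the opposite strand from 33 to 27. The Fabp2 window has a CDX match on the opposite strand from 65 to 59 bases before the start. CDX matches that also hold TATAAA lie in the Col17a1 window, from 141 to 135 and from 92 to 86 bases before the start. The Krt14 window has no match. Over all 13514 promoters, 0.47% hold the HNF4 letters. Of the genes with a difference of 2 or more that passed the test, they are in 9 of 914 promoters (0.98%) of the genes lower in the hair bulge and in 1 of 909 (0.11%) of the genes higher there. The CDX letters are in 8.47% of all promoters, 9.96% of the lower and 7.37% of the higher group. Those of AP-1 are in 6.39%, 8.64% and 7.81%, those of TCF in 2.97%, 3.72% and 2.97%, and TATAAA in 10.12%, 11.27% and 10.67% in the same order. These shares are descriptions of letters and were not tested.

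The populations differed in a large share of their genes. Of the 17097 genes, 7900 passed the test (46.2%), 3596 higher (21%) and 4304 lower in the hair bulge (25.2%). Counts of members of the gene lists are to be read against these shares. A difference of 2 or more was found for 1177 higher (6.88%) and 1147 lower genes (6.71%). In 486 of these higher genes GFP_Low cells were not above the receptor level, and in 369 of the lower ones the hair bulge was not. The median difference of all genes was -0.05. When arrays were scaled to a common 75th percentile this median became 0.13, a shift of 0.18, and the share of changed genes that were higher went from 45.5% to 54.9%, so differences under about this shift have no settled direction.

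The 12 genes with the largest positive difference were Col17a1, Krt14, the small heat shock protein gene Hspb1, the keratin Krt5, Dmkn (dermokine), Postn (periostin), Lgals7 (galectin 7), Ccn2 (a matrix growth factor), the connexin Gja1, Anxa8 (an annexin), Plet1 and Krtdap. Col17a1 was at 5946, 4911 and 6464 in the hair bulge and at 6.6, 6.3 and 4.5 in GFP_Low cells, and Hspb1 at 10532, 10585 and 11314 and 11, 14.6 and 13.3. The 12 genes with the largest negative difference were Lyz2, Lgals2 (galectin 2), Lypd8, Tff3, Defa39 (a defensin), Dmbt1, Itln1 (intelectin), Pigr (the transporter of secretory antibodies), Fabp2 (the intestinal fatty acid binding protein), Plac8, Zg16 and Spink4. The probe set named Lyz2 was at 5.7, 4.4 and 4.5 in the hair bulge and at 7589, 8489 and 12665 in GFP_Low cells. Lysozyme genes and defensin genes have near-identical copies, so the copy behind such a signal is uncertain.

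**Figure D2:**
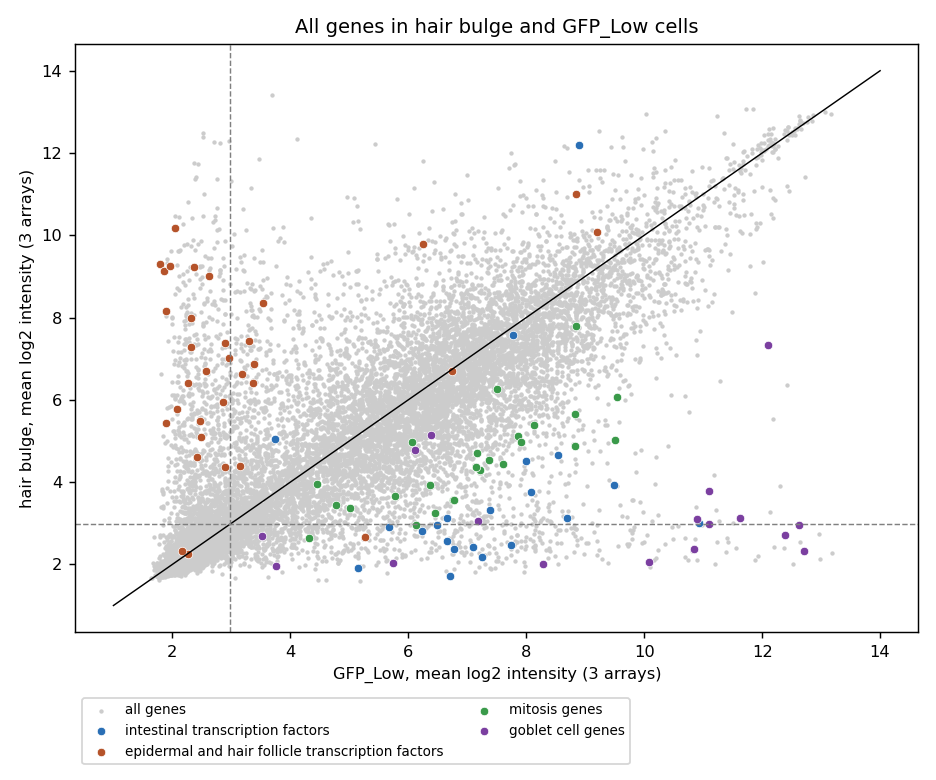
Mean log2 intensity of each of the 17097 genes in GFP_Low cells (x axis) and in the hair bulge (y axis), with the line of equality and the receptor level (dashed). Of the 21 intestinal transcription factors 18 lie under the line and passed the test, of the 33 epidermal ones 29 lie above it and passed, and all 25 mitosis genes lie under it.

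Genes that mark stem cells of the crypt did not move as one group. Of 19 measured crypt stem cell genes, 8 were higher in the hair bulge (42.1%, against 21% of all genes) and 7 were lower (36.8%, against 25.2%). The other 4 did not pass, and the median difference was -0.33. Olfm4, which encodes a glycoprotein secreted by crypt stem cells, was at 4.2, 5.7 and 5 in the hair bulge and at 3352, 2481 and 2298 in GFP_Low cells (at least 338-fold lower, adjusted p = 6.72e-11 from limma). The level in GFP_High cells was 6224 ± 846. Aqp4, a water channel (difference -5.32), Slc12a2, a sodium, potassium and chloride transporter (-2.36), and Rnf43, which removes Wnt receptors from the surface (-1.28), were also lower. Ascl2, the transcription factor of crypt stem cells, was at 9.8, 7.8 and 12.9 and 26.4, 55.2 and 44.6, against 453 ± 62.8 in GFP_High cells (difference -2.01, adjusted p = 1.95e-05 from limma).

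Several genes of this list were far higher in the hair bulge. Besides Lgr5 and Igfbp4, Sox9, a transcription factor of stem and progenitor cells, was at 922, 640.3 and 1159 and 64.8, 80.2 and 85.7 (11.5-fold higher, limma adjusted p = 4.11e-09). The hyaluronan receptor Cd44 was at 1704, 1842 and 1709 and 138, 109.5 and 111, a difference of 3.88. Tnfrsf19, a receptor of the TNF family, was at 52.5, 89.1 and 53.7 and 10, 15.6 and 10.6, a difference of 2.42. For none of these 3 genes did the arrays overlap. Axin2, a Wnt target and inhibitor, did not pass (-0.51, SE 0.20, adjusted p = 0.0512 from limma), and neither did the RNA-binding protein gene Msi1 (-0.42) or the kinase gene Cdk6 (-0.33). Without hair bulge 2, 9 of the 19 genes were lower, Msi1 (-0.58) and Cdk6 (-0.68) with them, and 8 higher.

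Of 30 genes of hair follicle stem cells, 29 were higher in the hair bulge and none lower, with a median difference of 4.10. Krt15, the keratin of the bulge, was at 5824, 4542 and 5317 in the hair bulge and at 8.5, 20.4 and 30 in GFP_Low cells. Cd34, the surface protein by which bulge cells are sorted in mice, was at 756, 585 and 1113 and 3.9, 5.1 and 3.9, at least 100-fold higher. Lhx2, a transcription factor that holds these cells in the niche, was at 1028, 1212 and 1237 and 4.1, 4 and 4.3, at least 146-fold higher (limma adjusted p = 1.16e-14). In each of these genes every hair bulge array exceeded every GFP_Low array. Postn (9.40), Plet1 (8.62), the inhibitor of activin Fst (7.35) and the factor Foxc1 (7.30) followed. Fgf5, which ends the growth phase of the hair, was not above the receptor level in either group. The defining markers of the bulge were thus present on all 3 hair bulge arrays.

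Among 6 genes proposed for reserve stem cells of the crypt, 5 were higher in the hair bulge, among them Clu, which encodes clusterin (269, 309.9 and 692 against 11.2, 12.7 and 14.3, difference 4.93), and the Polycomb gene Bmi1 (1.15). Tert, of telomerase, did not pass (-0.39, adjusted p = 0.176 from limma). Of 13 pluripotency factors, only 6 were above the receptor level in either group. Sox2, Nanog and Pou5f1 were not above it. Klf4 was at 4972, 3768 and 5531 and 424, 486 and 529, Myc at 1218, 754 and 1335 and 106, 181 and 136, and Klf2 at 313, 207 and 872 and 16.5, 31.9 and 18.8. All 3 were higher on every hair bulge array, with differences of 3.30, 2.96 and 4.16. Tbx3 (-2.68) and Tfcp2l1 (-1.57) were lower. Klf4, Klf2 and Myc are also induced within a short time when cells are taken from a tissue.

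Wnt ligands and receptors were more often higher than lower in the hair bulge. Of 34 Wnt ligands and receptors, 23 were above the receptor level in either group, and the median difference was 0.48. In the hair bulge 17 were higher (50%, against 21% of all genes) and 2 lower (5.9%, against 25.2%). The Frizzled receptor gene Fzd2 was at 503, 363 and 463 and 8.3, 11.7 and 14.5 (39.2-fold higher, limma adjusted p = 4.14e-09). Fzd3 (4.80), Fzd7 (3.61) and Fzd6 (3.20) were higher too, while Fzd5 was at 414, 223 and 459 and 596, 798 and 837 and was lower (-1.08, adjusted p = 0.00145 from limma). Its arrays did not overlap, but with the mean of its probe sets the difference was -0.20 and did not pass. The ligand gene Wnt4 was at 171, 158 and 143 in the hair bulge and about the receptor level in GFP_Low cells (7.5, 7.8 and 7). Wnt3, the ligand of Paneth cells, was not above the receptor level in either group.

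Lgr4 and Lgr6, the relatives of Lgr5, were both higher in the hair bulge. Lgr4 was at 1334, 1247 and 1421 and 505, 797 and 803 (difference 0.96), and Lgr6 at 54, 76.7 and 23.2 and 9.1, 8.6 and 10.8 (difference 2.28). Lgr4 was high in both populations, whereas Lgr6 was near the receptor level in GFP_Low cells. Among the genes of secreted Wnt inhibitors, Sfrp1 was at 1219, 1633 and 1288 and 6.1, 4.5 and 4.7 (at least 173-fold), Dkk3 at 491, 277 and 496 and 6.3, 8 and 7.5 (at least 51.5-fold), and Wif1 at 71.1, 51.9 and 79 and 5.2, 4 and 4.2 (at least 8.39-fold). Of 17 inhibitors and feedback genes, 7 were higher (41.2%, against 21% of all genes) and 2 lower (11.8%, against 25.2%). The lower ones were Sfrp5 (-1.49) and Sp5 (-1.02), a transcription factor induced by Wnt. Among 11 TCF and Groucho factors, 7 were higher (63.6%, against 21% of all genes) and 2 lower (18.2%, against 25.2%). Tle2 (3.13) and Tcf7l1 (3.04), a TCF of the resting bulge, led the higher ones. Tcf7l2, the TCF of the intestine, was at 340.0, 245 and 242 and 66.1, 126 and 133, higher by 1.40 in the hair bulge.

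**Figure D3:**
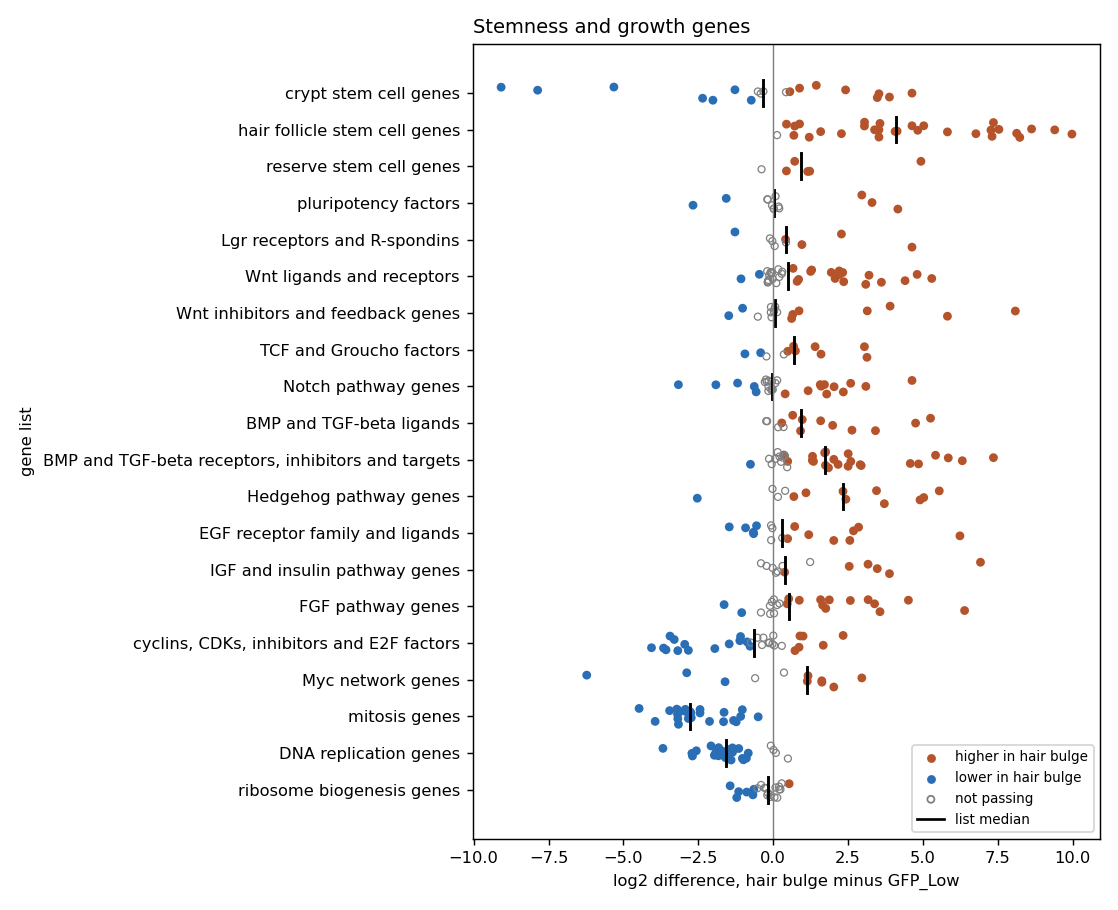
Log2 difference (hair bulge minus GFP_Low) of every measured member of 20 gene lists of stemness and growth, 1 point a gene, filled where it passed the test, with the list median as a black bar. Hair follicle stem cell genes have a median of 4.10 and mitosis genes one of -2.78, while the crypt stem cell genes spread from -9.08 to 4.63.

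Notch genes differed in both directions, with a median of -0.03. Of 28 measured genes 11 were higher in the hair bulge (39.3%, against 21% of all genes). Only 5 were lower (17.9%), a smaller share than the 25.2% of all genes. The ligand Jag1 was at 282, 211 and 296 and 5.7, 13.5 and 15 (24.8-fold higher, limma adjusted p = 2.17e-08) and the receptor Notch1 at 1309, 1112 and 1050.0 and 104, 165 and 144 (difference 3.09). The target Hey1 was higher by 2.34. In contrast the ligand Dll4, made by secretory progenitors of the crypt, was at 7, 7.6 and 7.7 and 14.2, 19.6 and 17.5 (difference -1.19). Hes6 (-1.91), a factor of differentiating cells, and Dtx4 (-3.17), a Deltex ubiquitin ligase, were lower too, with no overlap between arrays.

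Genes of bone morphogenetic protein (BMP) and TGF-beta signals were more often higher than lower in the hair bulge. BMP signals hold bulge cells at rest. Of 14 ligands 10 were higher (71.4%, against 21% of all genes) and none lower (against 25.2%), with a median of 0.94. Bmp2 was at 1530.2, 839 and 1629 and 24.8, 43.1 and 35.4 (38.1-fold, adjusted p = 1.80e-09 from limma), and Gdf10 at 194, 137 and 76.2 and 4.5, 4.6 and 5 (at least 16-fold). Tgfb3 was at 62.3, 177 and 26.1 and 9.4, 4.3 and 5.9, with the highest value on hair bulge 2. Of 33 receptors, inhibitors and targets 22 were higher (66.7%) and 1 lower (3%). The lower one was the signal transducer Smad3 (-0.76), which did not pass with the mean of its probe sets (-0.28). Some inhibitors and targets were among the higher genes. The BMP antagonist Grem1 was at 284, 321 and 271 and 9, 10.3 and 11.1, and Fst, which binds activin, at 1534, 787 and 1193 and 9.7, 6.2 and 5.5. The latent TGF-beta binding protein genes Ltbp1, Ltbp2 and Ltbp3 had differences of 5.42, 6.31 and 5.84. The BMP targets Id3 and Id4 had differences of 2.93 and 4.58, and Smad4 did not pass (0.35, adjusted p = 0.107 from limma).

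Most Hedgehog genes were higher in the hair bulge. Of 13 genes 9 were higher (69.2%, against 21% of all genes) and 1 lower (7.7%, against 25.2%), with a median of 2.33. Gli2, a transcription factor of the pathway, was at 414, 360.2 and 276 and 6.9, 8.8 and 6.7 (at least 43.7-fold higher). Gli1, its target, was at 129.7, 265 and 86.5 and 4.5, 4 and 4.8, and the receptor and target Ptch1 at 362, 990.5 and 240.4 and 67, 112 and 90.8 (difference 2.33). Hair bulge 2 was the highest array for both targets, and without it 9 genes were again higher and the median was 1.75. The co-receptors Boc (4.90) and Cdon (3.45) were higher. The gut ligand Ihh was at 5.4, 4 and 4.9 in the hair bulge and at 18.8, 41 and 26.8 in GFP_Low cells and was the lower gene (-2.54). Shh was not above the receptor level in either group.

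Receptors of growth factors differed in both directions. The epidermal growth factor receptor gene Egfr was at 394, 512 and 455 and 53, 77 and 60.2 (difference 2.85), and its relative Erbb3 at 400.1, 449 and 417 and 887, 721 and 800.3 (difference -0.92, adjusted p = 0.000642 from limma). The arrays of neither gene overlapped, and the differences had opposite signs. The ligands Epgn (349, 399 and 1005 against 6.2, 6.4 and 8.3), Ereg (2.56) and Hbegf (2.02) were higher, and Nrg4 (-1.47) and Tgfa (-0.66) were lower. Over the family, 8 of 17 genes were higher (47.1%, against 21% of all genes) and 5 lower (29.4%, near the 25.2% of all genes). Of 23 genes of the fibroblast growth factor pathway 13 were higher (56.5%) and 2 lower (8.7%). Fgfr1 was at 567, 553 and 727 and 7.3, 7.1 and 7.5 (at least 77.3-fold higher), Fgfr2 at 813, 637 and 747 and 59.4, 84.7 and 67.8, and Fgfr3 was higher by 2.57. Fgfr4, the lower receptor, was at 5.3, 4.4 and 6.7 and 17, 21.4 and 13 (-1.64). Dusp6, a feedback phosphatase of the pathway, was at 1935, 1105 and 1506 and 58.9, 74.1 and 62.1. Fgf18, a signal of the resting bulge, was at 111, 61.4 and 67.3 and 5.5, 9.2 and 5.5.

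Of 13 insulin-like growth factor and insulin genes 6 were higher (46%, against 21% of all genes) and none lower (against 25.2%). Igfbp3 was at 441, 559.9 and 864 and 6, 4.1 and 4.9 (at least 75.6-fold higher), and the adaptor Irs1 at 147, 117 and 188 and 6.9, 12.2 and 12 (14.7-fold). The receptor Igf1r was at 319, 345 and 301 and 47.2, 77.6 and 46.2 (difference 2.54, adjusted p = 5.35e-08 from limma). Igf2bp3 did not pass (1.23, SE 1.41, adjusted p = 0.54 from limma). The GFP_Low arrays lay on both sides of the hair bulge values of 57.8, 48.4 and 43.1.

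Most cell division genes were lower in the hair bulge. All 25 mitosis genes were lower, with a median difference of -2.78, and so were 26 of 30 DNA replication genes, with a median of -1.59. Ube2c, which drives the exit from mitosis, was at 22.6, 156 and 9.8 and 686, 842 and 659 (difference -4.48, SE 0.67, adjusted p = 6.21e-05 from limma). Mki67, the Ki-67 gene of cycling cells, was at 57.3, 344 and 15.7 and 664, 800.3 and 776 (difference -3.46, adjusted p = 0.00137 from limma). For both genes hair bulge 2 was well above the other hair bulge arrays and under each GFP_Low array. The kinase gene Plk1 was at 9.2, 24.3 and 7.5 and 114, 122 and 92.6, and the thymidine kinase gene Tk1 at 16.1, 79.3 and 5.9 and 242, 284 and 232.

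Set against the GFP_Low mean of each gene, the median mitosis gene was at -3.19 on hair bulge 1, -1.08 on hair bulge 2 and -3.86 on hair bulge 3. On the GFP_Low arrays it lay between -0.17 and 0.17. For DNA replication genes the hair bulge medians were -1.71, -0.35 and -2.61. In the pair of arrays with the same code, all 25 mitosis genes and 25 of the 30 replication genes were lower in the hair bulge. Without hair bulge 2 the median of the mitosis genes was -3.57, again with 25 lower, and that of the replication genes -2.16, again with 26 lower. Without hair bulge 3, 17 replication genes were lower, and likewise when only the 6 arrays were fitted. The methods' t-test, which takes the spread of each gene by itself, called 6 mitosis genes and 2 replication genes lower after adjustment. Hair bulge 2 was also the highest of its group for Cd207 and for 7 of 12 melanocyte genes, though the lowest for Mitf. The part of other cells in hair bulge 2 was not tested. Pcna, the sliding clamp of replication, was high in both groups (2729, 2256 and 2148 and 2522, 2293 and 2243) and did not pass (difference 0.01, adjusted p = 0.961 from limma).

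**Figure D4:**
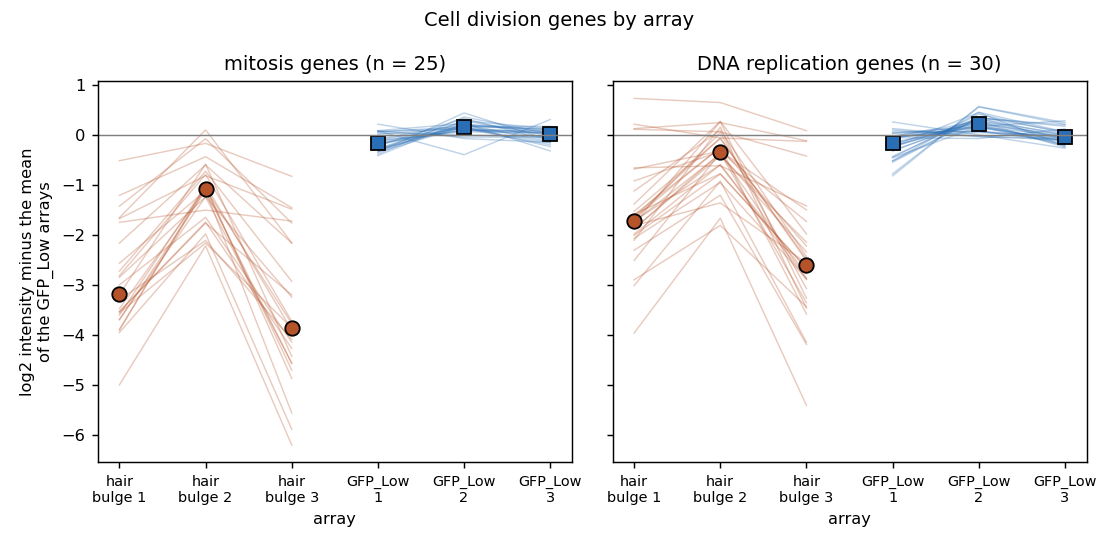
Log2 intensity of each mitosis gene (left) and DNA replication gene (right) on the 6 arrays, minus the mean of the GFP_Low arrays for that gene; thin lines are genes and large symbols the median of the array. The median mitosis gene is at -3.19, -1.08 and -3.86 on hair bulge arrays 1 to 3, so hair bulge 2 lies closest to the GFP_Low arrays.

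Of 30 cyclins, cyclin-dependent kinases, inhibitors and E2F factors 14 were lower (46.7%, against 25.2% of all genes) and 6 higher. The lower ones were led by Ccnb2 (14.9, 87 and 9.4 against 406, 386 and 364), Ccna2 (-3.66) and Cdk1 (-3.58), which act in the late cycle. Cdkn2b, an inhibitor induced by TGF-beta, was also lower (34.5, 27.1 and 50.1 against 205, 312 and 265). The inhibitor Cdkn1a, the p21 gene, was at 1583, 1076 and 1804 and 224, 362 and 296 and was higher (2.33, adjusted p = 8.46e-05 from limma). Cdkn1b, the p27 gene, was higher by 1.0. Ccnd3 was higher by 1.67, while Ccnd1 did not pass (244, 625 and 155 against 608, 403 and 458, adjusted p = 0.144 from limma). For Ccnd1 hair bulge 2 alone exceeded the GFP_Low arrays, and without it the difference was -1.31 and passed. Without hair bulge 2, 17 of these genes were lower. The methods' t-test after adjustment called 6 lower and 3 higher, without Ccna2 and Cdk1. The share higher, 20%, was close to the 21% of all genes.

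Among 11 genes of the Myc network 6 were higher (54.5%, against 21% of all genes) and 3 lower (27.3%, close to the 25.2% of all genes). Without hair bulge 2, 6 were higher and 4 lower. Myc was higher by 2.96, and its antagonist Mxd4 by 2.02. Mlxipl, a glucose-sensing factor of liver and gut also called ChREBP, was at 16.9, 12.2 and 17.9 and 1116, 1039.7 and 1333 (74.8-fold lower), and its partner Mlx was lower too (-2.89). Of 22 genes of ribosome assembly 1 was higher, 6 were lower and 15 did not pass, with a median of -0.19. On all arrays the share lower, 27.3%, was close to the 25.2% of all genes. With hair bulge 2 left out, 9 were lower and 1 higher, with a median of -0.28. Polr1b, a subunit of RNA polymerase I, was at 18, 15.5 and 12.4 and 37.8, 42 and 43.4 (difference -1.44). Npm1 was high in both groups (1919.6, 1921 and 1648 and 1693, 1804 and 1708).

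Most transcription factors of the intestine were lower in the hair bulge. Of 21 factors 18 were lower, with a median of -4.08, and 10 or 11 were above the receptor level on each hair bulge array against 20 or 21 on each GFP_Low array. Hnf4a, which drives enterocyte genes, was at 7.3, 7.1 and 10 and 2036, 1932 and 1910.5 (244-fold lower, adjusted p = 1.68e-14 from limma). Cdx2, the master factor of the gut, was at 9.2, 8 and 9.1 and 292, 595 and 406, and Cdx1 at 4.5, 6.6 and 5.8 and 196, 273 and 184 (47.2-fold and at least 27.1-fold lower). Elf3 (-5.56), Onecut2 (-5.09) and Foxa3 (-4.68) were lower as well. Klf5, a factor of dividing epithelial cells, was at 181, 167 and 234 and 224, 223 and 214 and did not pass (adjusted p = 0.546 from limma). Klf4 and Maf (1.30) were higher. Both are made in skin as well as in the gut.

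Of 33 epidermal and hair follicle factors 29 were higher in the hair bulge, with a median of 3.55, and 30 were above the receptor level on each hair bulge array against 12 on each GFP_Low array. Trp63, the p63 factor of stratified epithelia, was at 732, 717 and 488 and 3.7, 2.9 and 3.9 (at least 80.3-fold higher, limma adjusted p = 5.99e-13). Tbx1, a factor of bulge cell renewal, was at 551, 777 and 410.2 and 3.7, 3.6 and 3.6. Bnc1 (6.86) and Bnc2 (6.38), the basonuclins, and Tfap2b (6.27) were higher on every array. Gata3, a factor of the inner root sheath, was at 169, 319.6 and 303 and 5.9, 4.6 and 4.5. Pitx1 went the other way (6.7, 6 and 6.3 against 37.3, 52.2 and 29.5, difference -2.61, adjusted p = 9.64e-08 from limma).

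**Figure D5:**
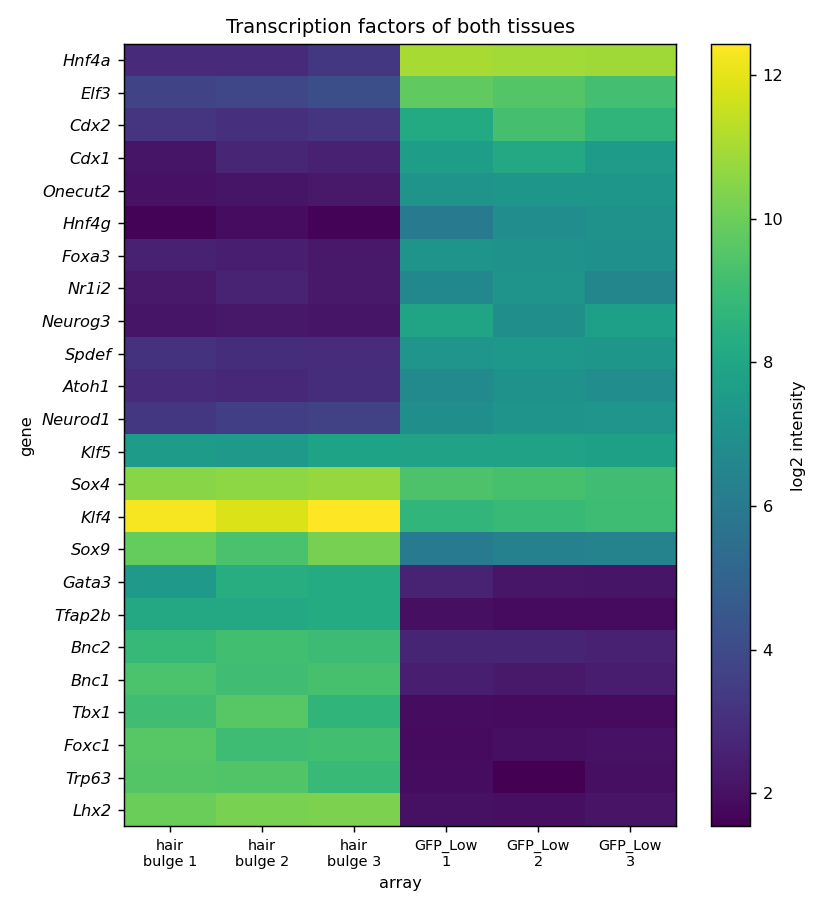
Log2 intensity of 24 transcription factor genes on the 6 arrays, from the factors of the intestine and its secretory cells at the top to those of the epidermis and hair follicle at the bottom. The genes were chosen with their differences known, so the 2 complementary blocks follow from the choice. Pitx1 and Maf, which went against the majority of their lists, are not shown. Klf5, Sox4, Klf4 and Sox9 in the middle have signal in both groups.

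Most genes of secretory commitment were lower in the hair bulge than in GFP_Low cells. Of 19 factors of the secretory lineage 14 were lower in the hair bulge, with a median of -1.93. Atoh1, which sets the secretory fate, was at 7.3, 6.9 and 7.7 and 106, 137 and 116 (at least 15.1-fold lower). Neurog3, the factor of endocrine progenitors, was at 4.4, 4.7 and 4.4 and 242, 124 and 206, and Spdef, of goblet and Paneth cells, at 8.7, 7.7 and 7.6 and 149, 162 and 159. No array overlapped in these genes. Sox4, a factor of progenitors in both tissues, was at 1433, 1553 and 1682 and 663, 623 and 538 and was the higher one (1.36, adjusted p = 1.08e-05 from limma).

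Most products of the mature intestinal cell types were lower as well. All 17 goblet cell genes were lower in the hair bulge (median -7.31), among them Zg16 (7.9, 10 and 5.8 against 6215, 6066 and 6632), Agr2 (-8.51) and Clca1 (-8.46). All 7 measured Paneth cell genes were lower (median -7.46), with Itln1 at 4.6, 5.8 and 5.6 and 3835, 4896 and 7993 and the protease Mmp7 at 6.6, 3.8 and 7.4 and 1138, 720.2 and 1233. No Paneth cell gene was above the receptor level on any hair bulge array. Of 24 enteroendocrine genes 21 were lower (median -3.34). Chgb, a granule protein, was at 5.2, 6 and 6.4 and 2625, 2389 and 3332, and the hormone gene Gip at 8.4, 9.4 and 7.2 and 2142, 2734 and 2524. Cpe, a peptidase that trims hormones, was higher in the hair bulge (428, 425 and 550.1 against 90, 125 and 155, difference 1.95), as was Ucn3 (2.19). Of 31 enterocyte genes 27 were lower (median -5.22). Fabp1 was at 3.9, 3.6 and 5.8 and 1061, 2277 and 2880.5, Vil1, of the brush border, at 7.7, 9.3 and 5.8 and 1309, 1459 and 1499, and Alpi, the intestinal alkaline phosphatase, at 7.9, 7.7 and 6.8 and 584, 1020.0 and 1240.0.

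Tuft cell genes did not move as one group. Of 14 measured, 6 were lower (42.9%, against 25.2% of all genes), with a median of -0.32. The 3 higher ones were 21.4%, close to the 21% of all genes. Avil was at 19.7, 11.3 and 12.3 and 89.3, 52.2 and 31, Dclk1 at 6.4, 5.7 and 6.7 and 19, 17.5 and 8, and the interleukin 25 receptor gene Il17rb at 23.5, 16.9 and 31.5 and 8.2, 8.4 and 11.1. GFP_Low 3 was the lowest of its group in Avil and Dclk1. Without both arrays of the shared code, 2 tuft cell genes were lower and 3 higher. With 75th percentile scaling or an offset of 16 before the log 3 were lower, while the methods' t-test called 0 lower, both after adjustment and at its unadjusted threshold of 0.01, so that Avil and Dclk1 did not pass.

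Keratins differed in both directions. Of 19 genes 9 were higher (47.4%, against 21% of all genes) and 5 lower (26.3%, close to the 25.2% of all genes). Among the lower ones were keratins of simple epithelia, with Krt19 at 12.1, 10.6 and 7.1 and 4084, 4839 and 4618 and Krt8 at 70.7, 68.5 and 112 and 5649.5, 5516 and 5298, so that Krt8 was still above the receptor level in the hair bulge. Krt20, of mature gut cells, had a difference of -6.48. Krt5, the partner of Krt14, was at 4961, 5335 and 4418 and 5.7, 6.5 and 7.4, and Krt16, of stressed and growing keratinocytes, at 913, 796 and 1172 and 4.9, 6.3 and 4.3. Krt6a was at 1214, 399 and 1696 and 5.8, 10.2 and 6.9, with hair bulge 2 the lowest of its group. Of 20 genes of basal adhesion 17 were higher (median 2.10), among them Lama3 (7.52) and Lamb3 (6.31), subunits of a basement membrane laminin, and the desmosomal cadherin Dsc3 (8.47). The cadherins Dsc2 (-3.68) and Dsg2 (-2.13) of simple epithelia were lower.

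The hair bulge arrays also held genes of maturing epidermis. Of 24 genes of the cornified layer and sebaceous gland 17 were higher (70.8%) and 2 lower (8.3%), with a median of 3.65. Without hair bulge 2, 16 were higher and 2 lower, with a median of 3.36. Lor, the loricrin gene of the cornified envelope, was at 491, 988 and 1053 and 4.1, 4.5 and 4.5, and Krt10, of suprabasal cells, at 1409, 2841 and 1830.0 and 24.4, 38.1 and 33. Sbsn was at 4047, 4501 and 5808 and 37.8, 50.9 and 41.8. The summed intensity of these genes ran from 8393 to 13846 on the hair bulge arrays, the highest on hair bulge 2, and from 2112 to 2321 on the GFP_Low arrays. Of 20 genes of the hair shaft and inner root sheath 9 were higher in the hair bulge (45%) and none lower. On each hair bulge array 8 were above the receptor level. Krt35 and Krt86, keratins of the hair shaft, were not above it in either group, whereas Krt75, of the companion layer, was at 184, 97.1 and 72.3 and 6.4, 7 and 6.5.

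Markers of other cell types had signal on both sets of arrays. Of 22 genes of mesenchyme, endothelium and muscle, 5 were higher (22.7%, against 21% of all genes) and none lower in the hair bulge, and their summed intensity was 529 to 709 against 237 to 297. Pdgfra and Pecam1 were not above the receptor level in either group. Col6a1 was at 248, 221 and 359 and 7.2, 7.4 and 9.5 and made up much of the hair bulge sum. Of 12 melanocyte genes 6 were higher (50%) and 1 lower (8.3%, against 25.2% of all genes). Dct was at 148, 408 and 97.3 and 6.7, 7.3 and 6.6, and Tyrp1 at 20.9, 119 and 16.4 and 4.8, 4.5 and 4, each highest on hair bulge 2, and without that array 5 were higher. Mitf, the factor of melanocytes, was at 632, 299 and 587 and 9.1, 6.5 and 6.4, with hair bulge 2 the lowest. Kit was the lower gene (10.5, 11.9 and 6.7 against 59.1, 49 and 50.7). Of 23 immune cell genes 2 were higher (8.7%) and 1 lower (4.3%), both under the shares of all genes. The lower one was Lyz2, whose copy is uncertain. H2-Aa, a class II gene, was at 28.3, 348 and 68.4 and 630.3, 13.7 and 782 and did not pass (adjusted p = 0.621 from limma), with GFP_Low 2 below every hair bulge array. Without GFP_Low 2, Cd74 was lower in the hair bulge (-3.94, adjusted p = 0.0166 from limma) and 2 of the immune cell genes were. Without both arrays of the shared code 4 were, H2-Aa with them (-4.00, adjusted p = 0.0237 from limma). The part of these cells in the results above was not tested.

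Most genes induced by handling and heat were higher in the hair bulge. Of 20 immediate early and heat shock genes 18 were higher and none lower, with a median of 2.22. Fosb was at 2642, 1869 and 3462 and 186, 284 and 258, Atf3 at 6087, 3810.0 and 6720.0 and 838, 715 and 805, and Dusp1 at 8004, 7126 and 8733 and 999, 1024 and 1102. Their summed intensity was 76235 to 99857 on the hair bulge arrays and 21205 to 22556 on the GFP_Low arrays, with no overlap. They were higher on the same arrays as Myc, Klf4 and Klf2, and their part in those differences was not tested. The methods also extend the incubation with trypsin for some skin samples, which cannot be told apart from the tissue.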

How the data were processed

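RNA of sorted cells was hybridised to Affymetrix HT MG-430 PM arrays. The authors deposited linear intensities, summarised per probe set with RMA-sketch in Affymetrix Power Tools (version not given in the sources used here). That method subtracts background and is meant to bring all arrays to a common distribution, so each difference is relative to the other genes. The 75th percentile of the deposited values still differed between arrays. It was 37.6, 50.3 and 47.8 on GFP_Low arrays 1 to 3 and 48, 49 and 46.6 on hair bulge arrays 1 to 3. The log2 of these values was used with no further step. The platform annotation and RefSeq (GRCm38.p6) named 28898 of 45141 probe sets with 1 gene, and the brightest probe set over all arrays represented each of 17097 genes. limma (version 3.58.1, R 4.3.3) was fitted to all 13 arrays in 4 groups, with Benjamini-Hochberg adjustment over all genes, after it was tested on simulated data. Arrays count as replicates by the labels. Each p-value sets a difference against the spread between arrays within groups. That spread is pooled over the 4 groups, Villus epithelium among them, and moderated by limma across genes. The text names the 5 markers, in each direction the 12 called genes of largest difference without overlap, and from each list up to 8 members of largest difference, 3 against the majority and 3 that did not pass. The comparison and its 36 gene lists were chosen with earlier results of these data known, and lists received no set test. Alternatives were other normalizations, filters and fits, and the omission of arrays.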

Additional observations from a re-analysis of the deposited data

How the results depend on the processing

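The number of genes called lay between 7066 and 8088 under the alternatives fitted with limma, against 7900, and was 5388 with the methods' t-test after adjustment. At that test's unadjusted threshold of 0.01 it was 4750, with 2241 higher and 2509 lower. An offset of 16 before the log left 715 higher and 700 lower genes with a difference of 2 or more, against 1177 and 1147. Leaving out 1 of the 6 arrays gave 7287 to 7758 called genes, of which 3259 to 3559 were higher and 3914 to 4499 lower, and 1130 to 1202 higher and 1055 to 1275 lower by 2 or more. No paired analysis was possible because hair bulge and GFP_Low share only 1 title code. Its arrays had residuals that correlated at 0.083, against -0.135 to 0.077 for the other pairs, and with the code as a random block 8045 genes were called. Of 183 named genes above the receptor level in either group, 150 had the same direction and call in all 17 alternatives, and 168 in those other than the t-tests. The t-tests ended 19 calls after adjustment and 24 at the unadjusted threshold. After adjustment Avil, Ccna2, Cd207, Cdk1, Dclk1, Fzd5, Maf, Mki67, Nrg4 and Ptch1 lost their calls. So did Rnf43, Smad3, Tbx3, Tcf7l2, Tfcp2l1, Tgfb3, Tk1, Tyrp1 and Ube2c. At the unadjusted threshold Ccnb2, Cdkn1b, Il17rb, Lgr4 and Lgr6 lost theirs as well. One direction turned: Pcna, which passed nowhere, was between -0.094 and 0.079 when 1 array was left out. Axin2 passed under 5 alternatives and Msi1 under 4, in each case as lower. With the mean of the probe sets, Fzd5, Smad3, Dclk1 and Cdkn1b did not pass. With 75th percentile scaling Smad4 passed. With an offset of 16 Nrg4 and Cd207 did not. The number of arrays and, for weak genes, the receptor level limit these results.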

Other observations

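Of the 687 genes in the lists and among the largest differences, 219 had a further probe set above the receptor level. For 1 of them a further probe set passed the test with the opposite sign. This was St3gal6, which encodes a sialyltransferase. Its main probe set was at 7.5, 10.4 and 7.2 in the hair bulge and at 145, 145 and 147 in GFP_Low cells, a difference of -4.14 on the log2 scale. Its other probe set had a difference of 3.01, with an adjusted p of 6.52e-09 in a limma fit to all probe sets. The gene is named after its values were seen.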
